A study of Mus musculus with 9 samples.

Results

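The genes described here are 10 major urinary protein genes, Mup1, Mup2, Mup3, Mup7, Mup11, Mup14, Mup16, Mup17, Mup20 and Mup21, measured by RNA sequencing in mouse liver. They were chosen by name, as the 10 of 49585 rows of the deposited gene table that carry these symbols, and the table holds 11 other numbered Mup rows. All animals were male C57BL/6J mice aged 14 weeks, and the labels name no mutant allele or drug. Ground control mice (GC) lived at 1 g in Tsukuba and came from Charles River. Microgravity mice (MG) and artificial gravity mice (AG) came from the Jackson Laboratory and were kept on the International Space Station for about 35 days. AG mice were held at 1 g in a centrifuge turning at 77 rpm, and MG mice were not. Each flight group held 6 mice, each of the 3 groups is represented by 3 libraries, and the livers of the flight mice were taken 2 days after splashdown. Every comparison with GC is therefore also a comparison of suppliers and of mice that did and did not land, and flight and supplier cannot be told apart. The labels do not tie libraries to animals, so each p-value reflects only the spread among the libraries sequenced, part or all of which may be technical.

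Major urinary proteins are small lipocalins, barrel-shaped carriers that the male mouse liver secretes into blood in large amounts and the kidney passes into urine. There they bind volatile pheromones, release them slowly and act as scent signals of identity and sex. Their transcription in hepatocytes depends on the male pattern of pulsed growth hormone, which acts through the growth hormone receptor and STAT5B, and on thyroid hormone, while ZHX2 and CUX2 are known as regulators of sex-biased or developmentally regulated liver genes. Mup20 encodes darcin, the pheromone that draws females to male scent. Mup1 is known for effects on glucose metabolism in obese mice. The genes form a tandem array in which a central block of nearly identical copies is flanked by more divergent, peripheral genes such as Mup3, Mup20 and Mup21.

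The 10 genes lie on chromosome 4 in the GRCm38 build, from the start of Mup7 to the end of Mup21 at chr4:60066469-62150863, which spans 2.084 Mb. Their near identity decides what the counts can say, so a stretch of coding sequence is shown first. It is the 60-base window in the second coding exon, of the same length in every gene, that gives the most distinct sequences, 7 among the 10 genes. Sequences are from GENCODE M21 transcripts (GRCm38, minus strand, read 5′ to 3′), and capitals mark bases that differ from Mup7.
Mup7: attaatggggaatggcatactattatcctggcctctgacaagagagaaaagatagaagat
Mup1: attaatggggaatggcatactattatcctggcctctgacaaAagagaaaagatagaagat
Mup16: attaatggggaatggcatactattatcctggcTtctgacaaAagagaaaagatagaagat
Mup17: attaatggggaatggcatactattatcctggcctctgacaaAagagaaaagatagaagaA
Mup20: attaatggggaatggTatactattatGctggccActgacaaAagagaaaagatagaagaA
Mup3: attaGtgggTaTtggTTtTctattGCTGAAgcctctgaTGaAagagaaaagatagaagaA
Mup21: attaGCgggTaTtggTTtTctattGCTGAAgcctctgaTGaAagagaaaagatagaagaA

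The Mup7 window lies at chr4:60069807-60069866, the Mup20 window at chr4:62053554-62053613, the Mup3 window at chr4:62086874-62086933 and the Mup21 window at chr4:62150269-62150328. Mup1, Mup2, Mup11 and Mup14 have the same 60 bases, which differ from Mup7 at 1 position. Mup20 differs from Mup7 at 5 positions of the window, Mup3 at 16 and Mup21 at 17. Over the whole coding sequence, the 7 genes other than Mup3, Mup20 and Mup21 were 98.5% to 99.8% identical to each other, which is 1 to 8 differing bases. Mup20 was 90.6% to 91.5% identical to those 7 genes, Mup3 83.9% to 84.8% and Mup21 84.1% to 85.0%. Mup3 and Mup21 were closest to each other, at 96.3% identity with 20 differing bases.

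Reads could accordingly be placed on some of these genes and hardly on others. Over all 9 libraries, 99.1% of the exon reads that the authors gave to Mup3 and 98.4% of those given to Mup21 mapped to 1 place. The share was 67.0% for Mup20 and 53.2% for Mup17. It was 29.2% for Mup7, 25.5% for Mup11, 15.5% for Mup14, 10.9% for Mup1 and 8.28% for Mup16. For Mup2 it was 0.64%, or 238 reads in all 9 libraries. Of the 50-base stretches of each transcript, 83.4% were found in no other annotated gene for Mup3, 80.7% for Mup21 and 49.5% for Mup20, against 0 of 878 for Mup2. The levels of Mup3 and Mup21, and largely that of Mup20, therefore belong to the named gene. Those of Mup1, Mup2, Mup7, Mup11, Mup14 and Mup16 rest mostly on how reads were shared out among copies. Changes among the central genes are uncertain as to which copy changed.

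**Figure D1:**
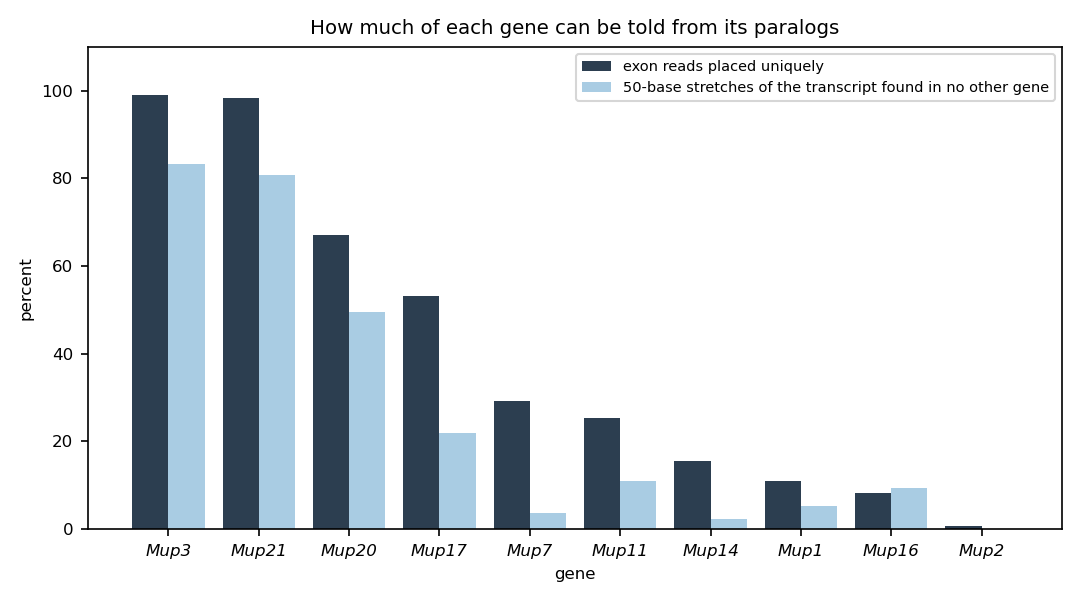
Percent (vertical axis) for each of the 10 genes (horizontal axis) of exon reads placed uniquely over all 9 libraries (dark bars) and of 50-base stretches of the transcript found in no other annotated gene (light bars). Mup3 and Mup21 stand above 80% on both measures, and Mup2 is at 0.64% and 0%.

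The liver marker genes and the makeup of the libraries were examined before the members were compared. Library totals ranged from 6194521 to 8957331 counts. Counts of 10 hepatocyte markers, which include albumin, summed to between 96530 and 128700 CPM (counts scaled to library depth) in every library, and all MG libraries lay above all GC libraries. Skeletal muscle transcripts stood out in GC 1, GC 2 and MG 2, at 140.5, 453.4 and 262.2 CPM over 10 genes, against 0.372 to 56.0 CPM in the other 6 libraries. Macrophage transcripts reached 1334 CPM in AG 1 and 265.6 to 350.8 CPM elsewhere, with MG below GC in every library. Bile duct markers, 6 genes, summed to 28.6 to 29.1 CPM in MG, against 37.3 to 48.4 in GC and 39.2 to 57.98 in AG, so that MG lay below both groups. None of the 5 tested bile duct genes was called by edgeR, with median log2 fold changes of -0.68 in MG against GC and -1.16 in MG against AG. Endothelial markers, at 378.6 to 540.7 CPM, overlapped between the groups. The part of these transcripts in the results was not tested, and values without the libraries rich in muscle or macrophage transcripts stand beside the results they change. Of 5 genes marking salivary or mammary gland, other sites of Mup expression, Amy1, an amylase gene also known from liver, was the 1 with enough reads to be tested.

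In ground control liver these were among the most abundant transcripts. On the scale of RPKM (reads scaled to annotated exon length and library depth), Mup7 ranked 16 among all rows by its GC mean, Mup3 ranked 19 and Mup20 ranked 25. Mup7 stood at 3381 ± 302 RPKM (SD, n = 3), Mup3 at 3036 ± 88.4 and Mup20 at 2570 ± 194. Mup7 lay between 3106 and 3704 RPKM and Mup3 between 2934 and 3092, so that the difference of their means was about the size of the spread of Mup7. Mup14 at 1196 ± 8.90 RPKM lay above Mup11 at 882 ± 74.4 and Mup17 at 731 ± 159, and the libraries of Mup11 and Mup17 overlapped. Mup2 at 385 ± 57.1 and Mup16 at 380 ± 28.8 RPKM overlapped as well, and Mup1 at 262 ± 19.3 RPKM lay below them. Mup21 was lowest at 71.9 ± 29.0 RPKM and ranked 400 among all rows. The RPKM values are the authors' and include reads placed at several copies. They divide by all annotated exon bases, 1584 for Mup1, 1576 for Mup11, 1038 for Mup16 and 927 for Mup17. The transcripts of these genes used above have 927 to 930 bases, so the order of the central genes depends on that length. In total exon reads summed over GC, Mup1 had 18353 and Mup16 17255, while Mup11 had 60536 and Mup17 29463.

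Together the 10 genes took a smaller share of liver RNA in both flight groups than on the ground. They held 2.54% ± 0.14 (SD, n = 3) of all total exon reads in GC, 1.48% ± 0.32 in MG and 1.69% ± 0.14 in AG. Reads are also shared with the other numbered Mup rows. All 21 numbered rows held 3.01% ± 0.19 in GC, 1.83% ± 0.28 in MG and 2.04% ± 0.19 in AG. Summed total exon reads of the 10 genes, a measure that does not depend on which copy a read is given to within the set, were 27180, 29800 and 30030 CPM in the GC libraries. They were 17060, 12970 and 20560 CPM in MG and 18250, 20770 and 18620 CPM in AG. Every flight library lay below every ground library, and the MG and AG libraries overlapped. The MG mean was 58.1% of the GC mean and the AG mean 66.2%. Without Mup3, the other 9 genes summed to 52.1% of GC in MG and 57.6% in AG. In bulk liver, fewer cells that express these genes and less RNA per cell cannot be told apart.

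**Figure D2:**
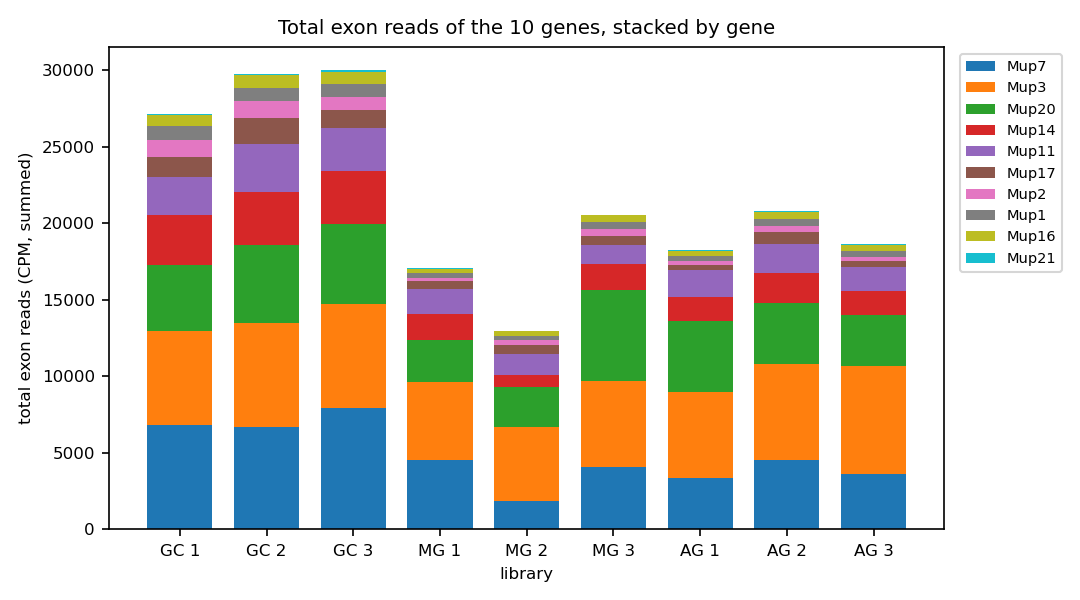
Total exon reads of the 10 genes in CPM (vertical axis), stacked by gene, in each of the 9 libraries (horizontal axis). The 3 GC bars reach 27180 to 30030 CPM and the 6 flight bars 12970 to 20770 CPM.

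The makeup of the family's reads differed between the groups as well. Of the total exon reads on all 21 numbered Mup rows, Mup3 took 19.01% to 19.54% in the GC libraries, 23.2% to 28.2% in MG and 24.7% to 31.5% in AG. Both flight groups lay above the ground libraries in that share. Mup7 took 20.7% ± 2.07 in GC, 16.2% ± 5.46 in MG and 16.5% ± 1.10 in AG. Mup14 took 9.81% ± 0.32 of the family's reads in GC, 6.52% ± 1.94 in MG and 7.26% ± 0.33 in AG, with no overlap between flight and ground. These shares were not tested. Mup20 took 14.1% ± 0.79 in GC, and its flight libraries ranged from 13.0% in MG 1 to 24.7% in MG 3.

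Mice in microgravity were compared with ground mice gene by gene. Of the 10 genes, 6 were called lower in MG by edgeR's quasi-likelihood test with Benjamini-Hochberg adjustment over all 11884 tested genes, and none was called higher. Across all tested genes, 0.841% were called lower. The log2 fold change was below 0 for all 10 genes, with a median of -1.23 against 0.01 over all genes. The libraries of the groups did not overlap for 9 of the 10 genes, the exception being Mup20, and 11.3% of all genes were lower in MG without overlap. The test used the deposited expression values, which count uniquely placed exon reads together with reads across exon junctions that fit several places.

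Mup21 and Mup3 are the genes whose reads are nearly all their own, and they moved by different amounts. Mup21 had 76.2, 73.8 and 147 CPM in the GC libraries, 23.03, 25.4 and 33.1 CPM in MG, and 67.6, 48.3 and 45.3 CPM in AG. MG lay below GC and below AG in every library, and GC 3 was the highest by far. Mup21 fell by 1.86 on the log2 scale in MG against GC (SE 0.27, adjusted p = 0.0115, edgeR's quasi-likelihood test), to 0.275 of the ground level. Mup3, the most abundant of them by this count, had 6137, 6822 and 6813 CPM in GC, 5129, 4849 and 5608 CPM in MG, and 5602, 6273 and 7045 CPM in AG. All MG libraries lay below all GC libraries, and AG spanned the range of GC. The log2 fold change of Mup3 in MG against GC was -0.34 (SE 0.12, adjusted p = 0.221, edgeR), which did not pass the test.

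Mup20, the darcin gene, was uneven among the microgravity libraries. It had 3607, 4285 and 4379 CPM in GC, 2267, 2228 and 5062 CPM in MG, and 3858, 3328 and 2793 CPM in AG. MG 3 was the highest of all 9 libraries and the other MG libraries were the lowest, so the groups overlapped. Its log2 fold change in MG against GC was -0.36 (SE 0.28, adjusted p = 0.636, edgeR).

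Among the central genes, Mup11 gave the tightest difference. Mup11 had 1414, 1618 and 1464 CPM in GC, 808, 754 and 659 CPM in MG, and 930, 976 and 792 CPM in AG. Flight and ground did not overlap, and Mup11 fell by 1.02 on the log2 scale in MG (SE 0.12, adjusted p = 0.00573, edgeR). Mup1 had 375, 419 and 431 CPM in GC, 146, 90.5 and 185 CPM in MG, and 134, 199 and 159 CPM in AG. Mup1 fell by 1.54 in MG (SE 0.23, adjusted p = 0.0115, edgeR), and every flight library was below every ground library. Mup16 had 397.8, 461.8 and 391.7 CPM in GC, 142, 158 and 234 CPM in MG, and 162, 199 and 178 CPM in AG. It fell by 1.23 in MG (SE 0.17, adjusted p = 0.0099, edgeR), and the AG libraries lay within the range of the MG libraries.

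Mup2 stood at 533, 506 and 385 CPM in GC, 101, 143 and 220 CPM in MG, and 103, 174 and 135 CPM in AG, and fell by 1.62 in MG (SE 0.27, adjusted p = 0.02, edgeR). Nearly all of these reads are shared with other copies. Counted by unique exon reads alone, Mup2 had 43, 29 and 39 reads in GC and 23, 9 and 13 in MG, with a log2 fold change of -1.49 and an adjusted p of 0.205 by edgeR. Mup14 had 1559, 1723 and 1812 CPM in GC, 869, 386 and 868 CPM in MG, and 774, 952 and 765 CPM in AG. It fell by 1.26 in MG (SE 0.25, adjusted p = 0.0404, edgeR), and MG 2 stood well below the other MG libraries.

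Mup7 and Mup17 showed differences of similar size that did not pass the test. Mup7 had 4027, 4232 and 5057 CPM in GC, 2770, 1112 and 2469 CPM in MG, and 2126, 2752 and 2236 CPM in AG. Its log2 fold change in MG was -1.07 (SE 0.27, adjusted p = 0.0958, edgeR), with no overlap between flight and ground and MG 2 the lowest of all libraries. Mup17 had 919, 1277 and 867 CPM in GC, 385, 438 and 475 CPM in MG, and 243, 622 and 286 CPM in AG. Its log2 fold change in MG was -1.24 (SE 0.30, adjusted p = 0.0813, edgeR).

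**Figure D3:**
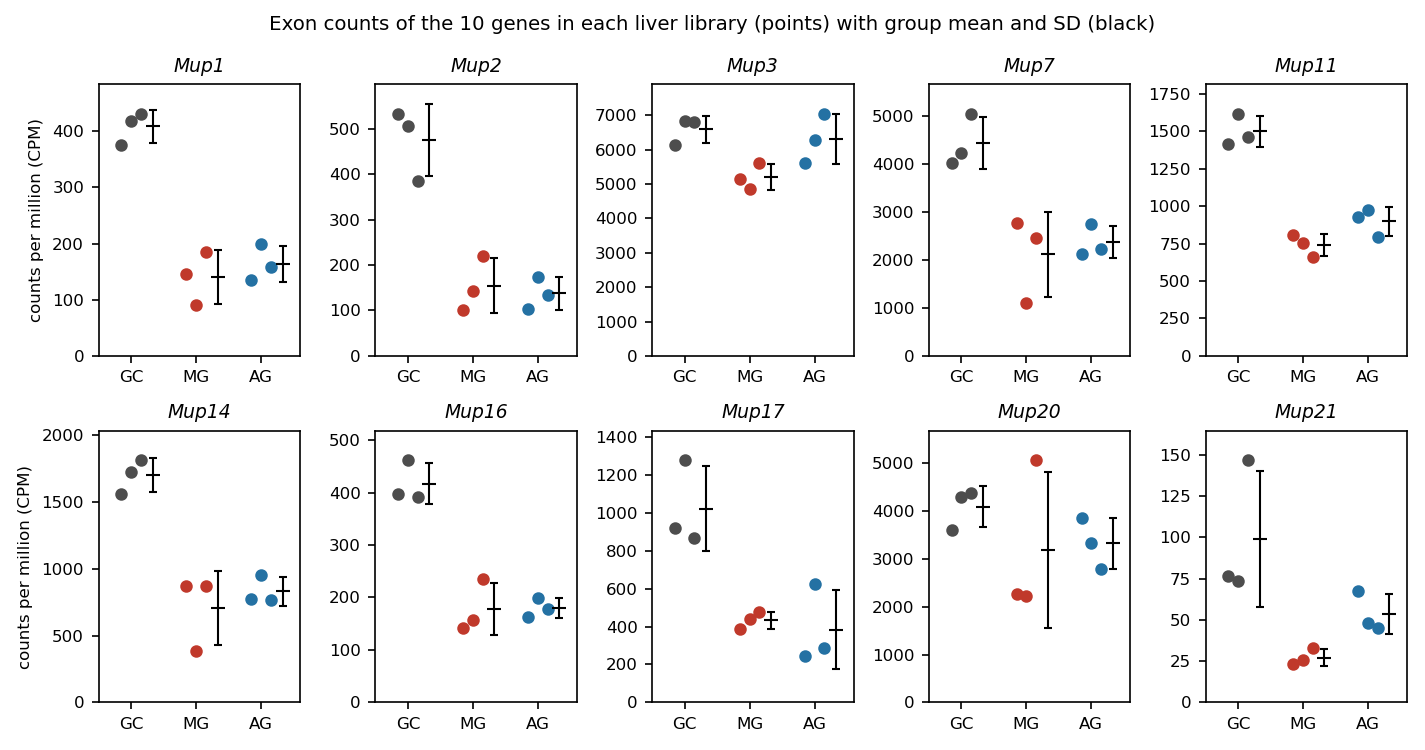
Exon counts in CPM (vertical axes, each from 0) of the 10 genes in the GC, MG and AG libraries, 1 point per library in the order 1 to 3, with the group mean and SD (n = 3) in black. Flight points lie below all GC points for 8 genes, while AG overlaps GC for Mup3 and both flight groups overlap GC for Mup20.

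The count of 6 depended on single libraries. Without GC 2 it was 2 genes, Mup11 and Mup21, where 0.124% of all genes were called lower. Without MG 2 it was 3, Mup1, Mup11 and Mup14, against 0.125% of all genes. Without GC 1 it was 4, against 0.266%, and leaving out any other library gave 5 to 7, against 0.279% to 1.46%. Without GC 1, GC 2 and MG 2, the libraries richest in muscle transcripts, 1 ground library was left and no gene of the table was called. The log2 fold changes of the 10 genes then lay between -2.40 and -0.27. With unique exon reads alone the count was 4 genes, Mup1, Mup11, Mup16 and Mup21, where 0.839% of all genes were called lower.

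Reads in introns come from RNA not yet spliced, and in MG the log2 fold change was further below 0 in introns than in exons for all of the 10 genes but Mup2 and Mup21. Summed over the 10 genes, uniquely placed intron reads stood at 520, 603 and 548 CPM in GC, 205, 190 and 248 CPM in MG, and 259, 352 and 276 CPM in AG. MG reached 38.5% of the GC mean and AG 53.2%, and flight and ground libraries did not overlap. Of the 10 genes, 7 were called lower in MG than in GC by edgeR's quasi-likelihood test with Benjamini-Hochberg adjustment over 10630 genes, of which 0.31% were called lower. These were Mup1, Mup3, Mup7, Mup11, Mup14, Mup16 and Mup17. The median log2 fold change of the 10 genes was -1.77, against -0.01 over all genes. Libraries did not overlap for 9 of the 10 genes, against 9.56% of all genes. Whether the intron difference of a gene exceeds its exon difference was not tested.

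Mup7 had 237, 167 and 187 unique intron reads in GC and 47, 6 and 12 in MG. Scaled for depth, that was 58.1 ± 4.99 CPM in GC and 4.36 ± 3.43 CPM in MG (SD, n = 3), and Mup7 intron reads fell by 3.63 on the log2 scale (SE 0.43, adjusted p = 0.00524, edgeR). The AG libraries held 31, 103 and 46 such reads, and AG overlapped MG when scaled for depth. With 1 library left out, the log2 fold change of Mup7 in MG against GC ran from -4.58 to -3.22. The value of -4.58 was without MG 1, the MG library with the most of these reads. Over all 9 libraries, 18.3% of Mup7 intron reads were placed uniquely. Counted together with those that fit several places, Mup7 had 1156, 889 and 955 intron reads in GC and 291, 95 and 156 in MG. Such totals were not tested, and the size of the difference depends on which reads are counted. Mup3 had 193, 229 and 222 CPM of intron reads in GC, 119, 95.1 and 91.3 CPM in MG, and 114, 161 and 142 CPM in AG. Flight lay below ground in every library, although AG overlapped GC in Mup3 exon counts. Mup3 intron reads fell by 1.07 in MG (SE 0.17, adjusted p = 0.0165, edgeR). Mup11 intron reads fell by 1.59 (SE 0.20, adjusted p = 0.00595, edgeR), from 79.6 ± 17.4 CPM in GC to 26.5 ± 5.08 in MG.

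Mup14, Mup17, Mup1 and Mup16 had fewer unique intron reads, from 2 to 27 per MG library. These were 12.1%, 49.1%, 23.5% and 32.3% of the intron reads given to each gene over all 9 libraries. Mup14 fell by 2.40 (SE 0.31), Mup17 by 2.45 (SE 0.41), Mup1 by 2.71 (SE 0.46) and Mup16 by 1.95 (SE 0.30), with adjusted p-values of 0.00826 to 0.0246 by edgeR. Mup20, Mup21 and Mup2 did not pass, with log2 fold changes of -0.94, -1.53 and -1.07 in MG. With 1 library left out, the value of Mup1 ran from -3.94 (without MG 1) to -2.39. That of Mup21 ran from -2.29 (without MG 3) to -1.04. Leaving out GC 2 left 2 genes called, Mup7 and Mup11, where 0.018% of all genes were called lower. Leaving out GC 3, MG 2 or MG 3 left 3 each, Mup7, Mup11 and Mup14, against 0.036%, 0.0363% and 0.0809% of all genes. Without the 3 libraries richest in muscle transcripts no gene was called, with log2 fold changes of the 10 genes from -3.26 to -1.04. The median over all intron genes was near 0. With the scaling factors of the exon counts in place of the intron ones, 6 genes were called, all but Mup3 of the 7. There 0.357% of all genes were called lower.

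**Figure D4:**
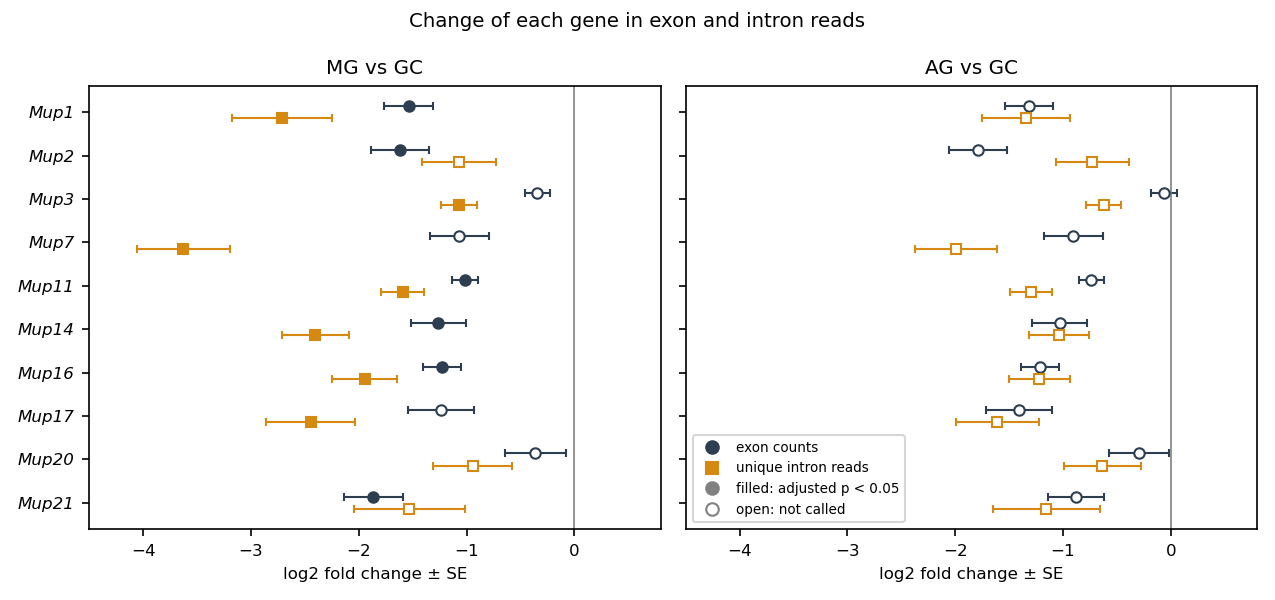
Log2 fold change with its SE (horizontal axis) of each of the 10 genes (vertical axis) in exon counts (circles) and unique intron reads (squares) for MG against GC (left) and AG against GC (right), filled where the adjusted p is below 0.05. All 40 values are below 0, and Mup7 has the lowest intron value at -3.63.

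Mice kept at 1 g in orbit were compared with ground mice next, a comparison that shares the GC libraries with the one above. None of the 10 genes was called in AG by edgeR, where 0% of all 11884 genes were called lower and the smallest adjusted p of any gene was 0.112. At an unadjusted p below 0.05 edgeR marked 8 of the 10 genes, the exceptions being Mup3 and Mup20, and 1199 genes in all. DESeq2 called 7 genes lower (Mup1, Mup2, Mup7, Mup11, Mup14, Mup16 and Mup17), where it called 0.539% of all genes lower, and limma-voom called none. Flight and ground libraries did not overlap for 8 of the 10 genes, against 7.17% of all genes. The median log2 fold change of the 10 genes was -0.97, against 0.01 over all genes.

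By gene, the log2 fold change in AG was -1.79 for Mup2 (SE 0.27), -1.41 for Mup17 (SE 0.30), -1.32 for Mup1 (SE 0.23) and -1.22 for Mup16 (SE 0.17). Mup16 had the smallest p of all 11884 genes in this comparison, with an adjusted p of 0.112 by edgeR. Mup14 stood at -1.03, Mup7 at -0.90, Mup21 at -0.88 and Mup11 at -0.74. Mup20 stood at -0.30 and Mup3 at -0.06 (SE 0.12). With unique exon reads the value of Mup2 was -0.45 (SE 0.47), so its low value in AG rests on reads shared with other copies. Without AG 3 the count of genes called was 2, Mup2 and Mup16, while calls over all genes went from 0 to 60, with 0.197% lower. Without AG 1, the library rich in macrophage transcripts, the count was 0, and without AG 2 it was 1, Mup17, where 0.00831% of all genes were called lower. The MG libraries enter only through the filter, the scaling and the shared spread. Without MG 2 the count was 2, Mup1 and Mup14, against 0.0167% of all genes, and without MG 3 it was 1, Mup16, against 0.00828%. Fitted without the MG libraries, Mup1, Mup2 and Mup16 were called, against 0.0347% of all genes. With no filter on low counts, edgeR called 6 of the 10, where 0.134% of all genes were called lower.

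In intron reads none of the 10 genes was called in AG by edgeR, where 0% of all 10630 genes were called lower. At an unadjusted p below 0.05 it marked 8 of the 10 genes and 831 in all, and DESeq2 called Mup7, Mup11 and Mup17, where it called 0.103% of all genes lower. Libraries did not overlap for 8 of the 10 genes, against 6.12% of all genes. The log2 fold changes ran from -2.00 for Mup7 (SE 0.38) to -0.62 for Mup3 (SE 0.16). Without AG 3, edgeR called Mup7 and Mup11, with 179 calls over all genes and 1.07% of genes lower. With no filter it called 9 of the 10, against 0.736% of all genes.

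The flight groups, which differ in gravity and share supplier, launch and landing, were compared directly. None of the 10 genes was called in MG against AG by edgeR, and 0% of genes were called lower in exon counts. At an unadjusted p below 0.05 edgeR marked 3 of the 10 genes, Mup3, Mup11 and Mup21, and 1164 genes in all, and DESeq2 called Mup21, where it called 0.496% of all genes lower, while limma-voom called none. Mup21 was the 1 gene of the 10 whose MG libraries lay below all AG libraries, against 5.96% of all genes. Its log2 difference was -0.98 (SE 0.27, adjusted p = 0.322, edgeR). For Mup16 the difference was -0.01 (SE 0.17), for Mup20 -0.06 (SE 0.28), for Mup7 -0.16 (SE 0.27) and for Mup2 0.17 (SE 0.27). Such intervals leave room for differences either way, and the comparison does not show that the groups were alike.

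In intron reads MG lay below AG in log2 difference for all 10 genes, with a median of -0.59 against -0.01 over all genes. None was called by edgeR, where 0% of genes were called lower, and DESeq2 called none of them either. At an unadjusted p below 0.05 edgeR marked 5 of the 10 genes and 1031 in all. The libraries did not overlap for Mup14, at -1.37 (SE 0.33), and Mup16, at -0.73 (SE 0.32), and 6.72% of all genes did so. Mup7 stood at -1.63 (SE 0.46, adjusted p = 0.315, edgeR). Without AG 3, Mup14 was called by edgeR, with 173 calls over all genes and 0.658% of genes lower. With no filter it called Mup1, Mup7 and Mup14, against 1.2% of all genes.

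With both flight groups averaged against ground, 7 of the 10 genes were called lower in exon counts, the 6 called in MG and Mup17, and 0.648% of all genes were. In intron reads 7 were called lower, where 0.169% of all genes were. The exon count fell to 0 without GC 2 and to 0 without GC 3, where 0 genes of the whole table were called. It was 3 without GC 1, against 0.0747% of all genes called lower. The intron count was 3, 2 and 1 without GC 1, GC 2 and GC 3, against 0.0736%, 0.027% and 0.00899% of all genes called lower. It was 3 without MG 2 and 4 without AG 2, against 0.0545% and 0.0643%.

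In the authors' deposited table, with its own fold changes and false discovery rates, 8 of the 10 genes were below 0.05 for GC against MG, 6 for GC against AG and 0 for MG against AG. Over all 49585 rows the authors' deposited table had 226, 54 and 60, counted in either direction. In the authors' deposited table Mup3 and Mup20 were the 2 genes above the threshold for GC against MG.

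Across the 9 libraries the members' levels largely rose and fell together. Each gene's expression values were correlated with the summed total exon reads of the other 9 genes, both in log2 CPM. Mup1 had Pearson's r = 0.987 and Mup14 0.972, while Mup3 had 0.672 and Mup20 0.585. These are descriptions: the libraries include the group differences, and the central genes share reads. Genes outside the Mup family whose counts averaged 50 or more were ranked, leaving out predicted and clone-named genes, which gave 8573 genes. The 5 of them most like the summed Mup reads by Pearson's r over the 9 libraries were Ndufs3 (0.969), Bop1 (0.964), C6 (0.955), Abca2 (0.955) and Park7 (0.953). Ndufs3 encodes a subunit of respiratory complex I, Bop1 a ribosome assembly factor and C6 a complement protein. Of these, C6 was called lower in MG against GC, from 393 ± 22.7 CPM to 203 ± 32.9 (SD, n = 3, adjusted p = 0.0115, edgeR), and stood at 254 ± 35.1 in AG. The other 4 were not called.

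Most of a list of genes known for higher expression in male than in female mouse liver were called lower in MG as well. Of 20 tested genes of that list, which leaves out the Mup rows and was drawn up with earlier results of these data known, 13 were called lower in MG than in GC by edgeR and none higher, where 0.841% of all genes were called lower. Over these 20 genes the log2 fold change had a median of -1.12, against 0.01 over all genes. The 7 that did not pass, named after their values were seen, were Gstp1 (-1.11), Susd4 (-0.96), Keg1 (-0.59), Cyp2f2 (-0.56), Egfr (-0.55), Elovl3 (-0.35) and Slco1a1 (-0.12). Cyp7b1, an oxysterol hydroxylase, had 316 ± 17.8 CPM in GC, 115 ± 22.2 in MG and 192 ± 40.5 in AG. Cyp4a12b, a fatty acid hydroxylase, had 79.7 ± 12.6, 27.4 ± 6.00 and 65.9 ± 9.45 CPM. Ces2c, a carboxylesterase, had 87.2 ± 3.88, 20.8 ± 5.60 and 57.0 ± 14.5 CPM, and Cyp2d9 had 1282 ± 70.2, 727 ± 105 and 1023 ± 134 CPM. Serpina1e, an antiproteinase gene with close copies, had 5784 ± 1490, 961 ± 626 and 1582 ± 114 CPM. In AG against GC none of the 20 was called by edgeR, and their median was -0.44. In MG against AG none was called either, with 18 of the 20 below 0 and a median of -0.73. The 10 Mup genes had a median of -0.19 in exon counts in that comparison.

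None of 23 genes listed as regulators of Mup transcription was called in MG against GC or in AG against GC, with medians of 0.17 and 0.16. Zhx2, a regulator of liver genes, had 42.6 ± 3.40 CPM in GC, 42.4 ± 0.86 in MG and 43.8 ± 2.61 in AG. Cux2, a female-biased repressor of male-biased genes, had 0.96 ± 0.38, 6.41 ± 3.74 and 4.60 ± 7.01 CPM, with a log2 fold change of 2.74 in MG (SE 1.07, adjusted p = 0.28, edgeR) and a spread in AG larger than its mean. Foxo1, a transcription factor restrained by insulin, was called higher in flight as a whole, with a log2 fold change of 0.47 (SE 0.09, adjusted p = 0.0395, edgeR).

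Of 15 tested genes of growth hormone and STAT5 signalling, Socs2, an inhibitor that STAT5 induces, was called higher in MG, at 51.4 ± 10.8 CPM against 11.7 ± 6.84 in GC, and stood at 40.3 ± 19.96 in AG (log2 fold change in MG 2.11, SE 0.42, adjusted p = 0.0386, edgeR). Stat5b, at 59.8 ± 4.90, 74.0 ± 5.17 and 57.9 ± 8.70 CPM in GC, MG and AG, was not called. Ghr, the growth hormone receptor, had 539 ± 23.2, 468 ± 42.2 and 540 ± 52.0 CPM and was not called. Bcl6, a repressor that competes with STAT5, varied within every group, with 29.4 ± 26.0, 37.4 ± 24.5 and 34.8 ± 31.2 CPM.

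Of 20 other genes of secreted liver proteins, which include albumin and transferrin, none was called in MG against GC by edgeR, and their median log2 fold change was 0.07. Albumin, Alb, had a log2 fold change of 0.30 (SE 0.14, adjusted p = 0.398, edgeR). Of 8 tested lipocalin genes outside the Mup family, Orm1, an acute-phase carrier protein, was called lower, from 544 ± 48.5 CPM in GC to 310 ± 50.5 in MG (adjusted p = 0.02, edgeR). Among 10 hepatocyte markers Fabp1, a fatty acid carrier, was called lower, from 2938 ± 297 CPM to 1363 ± 217.

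The sequence before the start of the genes was read from RefSeq promoters (GRCm38.p6), which cover 250 bases before to 50 after the start and were given for 7 of the 10 genes (Mup2, Mup3, Mup7, Mup11, Mup14, Mup17 and Mup21). On both strands, none of the 7 held TTCNNNGAA, a STAT5 site, which 8.47% of 27025 promoters hold. None held TATAAA, which 14.2% hold, or TTNNGCAA, a C/EBP site, which 10.8% hold. This says only that these letters are not in these windows. The longest run found in all 7 windows was 15 bases, present in 12 of the 27025 promoters (0.0444%), all 12 of them Mup genes. It is in capitals in the 150 bases before the start of 4 genes, Mup2, Mup17, Mup3 and Mup21, shown as examples. In MG against GC exon counts Mup2 and Mup21 were called lower, and Mup17 and Mup3 were not called. Mup2, Mup17 and Mup21 had log2 fold changes below -1 there. So did Mup7, Mup11 and Mup14, whose windows hold the run as well and are not shown. The stretches are Mup2 at chr4:60139857-60140006, Mup17 at chr4:61595833-61595982, Mup3 at chr4:62087318-62087467 and Mup21 at chr4:62150842-62150991, all on the minus strand and read 5′ to 3′.
Mup2: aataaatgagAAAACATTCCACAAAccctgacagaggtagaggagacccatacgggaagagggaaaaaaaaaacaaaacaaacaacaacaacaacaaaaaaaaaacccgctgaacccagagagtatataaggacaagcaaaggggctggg
Mup17: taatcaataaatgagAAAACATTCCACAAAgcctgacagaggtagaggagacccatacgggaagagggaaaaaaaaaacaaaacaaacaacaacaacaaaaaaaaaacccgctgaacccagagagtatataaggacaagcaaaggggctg
Mup3: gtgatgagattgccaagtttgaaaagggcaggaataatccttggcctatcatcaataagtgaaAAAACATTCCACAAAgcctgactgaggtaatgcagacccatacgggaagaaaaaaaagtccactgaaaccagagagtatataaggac
Mup21: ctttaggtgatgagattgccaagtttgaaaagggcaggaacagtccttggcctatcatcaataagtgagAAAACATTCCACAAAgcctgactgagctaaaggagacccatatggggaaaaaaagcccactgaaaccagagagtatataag

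The annotated starts differ between the genes, so that the run begins 140 bases before the start of Mup2 (position -140), at -135 in Mup17, at -87 in Mup3 and at -81 in Mup21. Its presence was found by looking at these windows and is a description of shared sequence.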

How the data were processed

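Liver RNA depleted of ribosomal RNA was read on a NextSeq sequencer (per the labels' protocols) in 9 libraries of 3 groups. The authors deposited 1 table of 49585 gene rows with whole-number read counts in exons, introns and junctions, RPKM, and their own fold changes and p-values, per the file headers. Those deposited fold changes are signed, so they were treated as a score. The submitters' processing notes name GRCm38 and mm10. The sources used here do not name the aligner or the counting tool, nor say whether strand was used. In 100% of gene and library pairs the deposited expression values equal unique exon reads plus junction reads that fit several places. A further 71 columns of per-library values were not used.

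Expression values (6194521 to 8957331 per library) and unique intron reads (3278594 to 4876196) were the counts tested, each over all 9 libraries with 6 residual degrees of freedom. The steps were filterByExpr by group, TMM scaling and glmQLFTest in edgeR 4.0.16 (R 4.3.3), with Benjamini-Hochberg adjustment over all genes and a threshold of 0.05. Summed levels use total exon reads and carry no p. A level of 3 reads corresponds to 0.339 to 0.472 CPM, a floor that covers counting error only, since these reads carry no molecular identifiers. Tests were checked on simulated data. Library numbers were not read as pairs.

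The 10 genes and all lists were chosen with earlier results of these data known. The text names all 10 genes, up to 6 called genes of each list by smallest p, 6 regulators in any case (1 is not reported here), the 5 genes most like the summed reads, and the other numbered Mup rows. Alternatives were unique or total exon reads, RLE or no scaling, Mup rows left out of the totals, the exon scaling for intron reads, other filters, DESeq2 1.42.0, limma-voom (limma 3.58.1), fits of only the groups compared, a replicate block and leaving out each library. Leaving out 3 libraries rich in muscle transcripts was added after seeing the data. Protein identity was planned, and coding sequence identity from GENCODE M21 (Biopython 1.88) was used in its place. Each gene was represented by its longest manually annotated protein-coding transcript. Figures used Python 3.11.15 and matplotlib 3.10.9.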

Additional observations from a re-analysis of the deposited data

How the results depend on the processing

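In MG against GC the log2 fold change of each of the 10 genes stayed below 0 in exon and intron reads under every alternative run. The count of exon calls was 6 in the main analysis and 2 to 7 without 1 library, 0 for AG against GC and 0 to 2, 0 for MG against AG and 0 to 0, and 7 for flight against GC and 0 to 7. The count of intron calls was 7 for MG against GC and 2 to 8 without 1 library, 0 to 2 for AG against GC, 0 to 1 for MG against AG, and 7 for flight against GC and 1 to 7. In the same order, 0.124% to 1.46%, 0% to 0.197%, 0% to 0.493% and 0% to 1.13% of all genes were called lower in exon counts without 1 library. In intron reads these shares were 0.018% to 0.811%, 0% to 1.07%, 0% to 0.658% and 0.00899% to 1.29%. Without the 3 libraries richest in muscle transcripts, chosen after seeing the data, all 4 exon and all 4 intron counts were 0, with 1 ground library left. For AG against GC, exon calls were 6 with no filter on low counts (0.134% of all genes called lower), 7 by DESeq2 (0.539%) and 3 with only the groups compared (0.0347%), and intron calls were 9 with no filter (0.736%) and 3 by DESeq2 (0.103%). For MG against AG, DESeq2 gave 1 exon call (0.496%) and no filter 3 intron calls (1.2%). The cause was not tested.

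The summed level in CPM changes with the reads counted: for GC, MG and AG in turn, expression values gave 20740, 12880 and 14650, and unique exon reads gave 14140, 9753 and 11100. AG as a percent of GC was 78.5% by unique exon reads, against 66.2% by total exon reads. Without 1 library the summed level was 28520 to 29990 CPM in GC, 15050 to 18720 in MG and 18430 to 19620 in AG.

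Signs changed in 22 of 1428 values, 21 of them in MG against AG. With unique exon reads MG against AG was -1.04 for Mup2 and 0.057 for Mup16. Without the 3 libraries rich in muscle transcripts it was 0.0095 for Mup1, 0.14 for Mup7, 0.061 for Mup14, 0.062 for Mup16 and 0.13 for Mup20. Without 1 library MG against AG ran in exon counts from -0.47 to 0.0069 for Mup1, -0.17 to 0.40 for Mup2, -0.40 to 0.14 for Mup7, -0.40 to 0.059 for Mup14, -0.26 to 0.13 for Mup16, -0.068 to 0.71 for Mup17 and -0.56 to 0.13 for Mup20. In intron reads it ran from -0.90 to 0.056 for Mup20 and -1.14 to 0.11 for Mup21. AG against GC in Mup3 exon counts ran from -0.15 to 0.0104.

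With a replicate block for the library number, exon calls were 6, 0, 0 and 7 for MG against GC, AG against GC, MG against AG and flight against GC, and intron calls 7, 0, 0 and 6. In the same order, 0.799%, 0%, 0.00841% and 0.707% of all genes were called lower in exon counts. In intron reads 0.423%, 0%, 0% and 0.282% were. Mup17 was then called in place of Mup14 in MG against GC exon counts, and Mup1 was not called in flight introns. Residuals of libraries with the same number correlated between -0.28 and 0.48 in exon counts and between -0.07 and 0.18 in intron reads. Those of libraries with different numbers correlated between -0.593 and 0.385 and between -0.248 and 0.132. The ranges overlapped, and the numbers were not read as pairs. Such correlations cannot show that no pairing exists. Over all genes, MG against GC had 165 exon calls by edgeR, 394 by DESeq2, 278 with no filter and 373 with only the groups compared. Reads shared among copies limit which central gene a change belongs to, and intron calls of the less abundant genes rest on as few as 2 reads in a library.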

Other observations

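The 11 other numbered Mup rows stood at mostly low levels. Mup19 was the abundant exception, at 2002 ± 198 RPKM in GC, 1620 ± 262 in MG and 1450 ± 317 in AG (SD, n = 3), and none of its exon reads was placed uniquely in any library, so its level cannot be separated from that of its copies. Mup15 stood at 236 ± 76.6 RPKM in GC and the remaining 9 rows below 100 RPKM. Mup4, known from lachrymal and nasal glands, and Mup5, known from salivary glands, stood at 0.32 ± 0.07 and 1.03 ± 0.23 RPKM in GC.

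By edgeR's quasi-likelihood test with Benjamini-Hochberg adjustment, Mup8 and Mup18 were called lower in MG than in GC, with log2 fold changes of -1.41 (SE 0.27, adjusted p = 0.0346) and -1.22 (SE 0.24, adjusted p = 0.0374), and no other of these rows was called. Mup10 had -0.65 (adjusted p = 0.0716) and Mup12 -0.90 (adjusted p = 0.0919, edgeR). Mup19 had -0.34 in MG and -0.41 in AG. Mup9 was uneven within groups, with 36.4, 224 and 112 CPM in GC, 122, 36.6 and 15.4 CPM in MG and 102 ± 2.15 CPM in AG (SD, n = 3). In intron reads Mup12 was called lower in MG, at -1.65 (SE 0.32, adjusted p = 0.0452, edgeR).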
